A study of Homo sapiens with 9 samples.

Results

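BNIP3 and 8 further genes of the removal of mitochondria by autophagy (mitophagy) were followed in A498, a long-established human cell line from a clear cell renal cell carcinoma (ccRCC). The genes were BNIP3, BNIP3L, FUNDC1, PINK1, BECN1, SQSTM1, OPTN, MAP1LC3B and GABARAPL1. They are the rows of the count table that carry these names, 9 of 27671 genes. The rule uses no measured value, but the list was drawn up with earlier results of these data known. All 9 passed the filter on low counts that left 15551 genes for testing.

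RNA sequencing was performed on 9 libraries in 3 groups of 3 biological replicates. Cells received a pLKO.1 lentivirus made in HEK293T cells. The virus encoded a control hairpin in the shControl group, a hairpin that targets BMAL1 in shBMAL1, and a hairpin that targets ARNT in shARNT. All groups therefore shared infection and puromycin selection, the controls included, and the labels give the genotype of every sample as wild type. The labels name no further hairpin for either target, and biological replicates were not described as separate infections, so the p-values measure the spread between these 3 samples of a selected population. In such bulk RNA, a different share of cells and a different amount of RNA per cell cannot be told apart. ARNT dimerizes with the hypoxia-inducible factor subunits HIF1α and HIF2α. BMAL1, a related protein, dimerizes with CLOCK to drive circadian transcription. The study reports that BMAL1 can also pair with HIF2α in ccRCC cells and act on part of its target genes. The comparisons address how mitophagy transcripts differ when either of these partners is depleted.

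Mitophagy marks damaged or surplus mitochondria and encloses them in a membrane, the phagophore, which then fuses with the lysosome. In the receptor route, BNIP3, BNIP3L (NIX) and FUNDC1 sit in the outer mitochondrial membrane and bind ATG8 proteins of the phagophore directly. In the ubiquitin route, the kinase PINK1 accumulates on depolarized mitochondria and activates Parkin, and adaptors such as SQSTM1 (p62) and OPTN link the ubiquitin chains to ATG8 proteins. BNIP3 and BNIP3L are textbook targets of HIF, which is constitutively active in most ccRCC because the VHL gene is lost.

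Library totals were 35269851 to 36099075 counts. Levels are given as CPM, counts scaled to a common library size after correction by trimmed means of M values (TMM). The correction factors of the control libraries (0.932 to 0.944) and of shBMAL1 (0.961 to 0.971) were below those of shARNT (up to 1.11). The targeted genes followed their labels. ARNT was at 50.5 ± 2.24 CPM in shControl, 32.3 ± 1.52 in shBMAL1 and 9.46 ± 0.433 in shARNT, and BMAL1, listed as ARNTL, was at 16.3 ± 0.395, 5.02 ± 0.789 and 23.8 ± 1.30 CPM (SD, n = 3). The level of ARNT was therefore also lower in shBMAL1 libraries. shControl replicate 1 stood farthest from its own group, with a chi-square statistic of 43.6 and 40.5 per gene against the other control libraries, compared with 6.73 to 19.7 for the remaining pairs of replicates. The renal epithelial markers PAX8, PAX2, KRT8, KRT18 and CDH6 were all detected. PAX8 was at 36.0 ± 1.92 CPM in the controls, 40.8 ± 3.69 CPM after depletion of BMAL1 and 100.3 ± 5.66 CPM after depletion of ARNT, and KRT8 was at 1099 ± 12.5, 1011 ± 41.3 and 653 ± 28.6 CPM (SD, n = 3). CDH6 fell from 199 ± 3.03 CPM in the controls to 29.3 ± 1.36 CPM in shARNT, a fall of 2.76 on the log2 scale, and PAX2 was at 9.84 ± 1.07, 6.95 ± 1.11 and 6.71 ± 0.410 CPM, so single renal markers moved in either direction. Among markers of other cells, CD3E had no count, PTPRC stayed at or below 0.365 CPM and the endothelial genes PECAM1, CDH5 and VWF summed to at most 0.323 CPM. The summed leukocyte list fell from 1786 to 1905 CPM in shControl to 135.5 to 148.4 CPM in shARNT, nearly all of which was CD68, a lysosomal glycoprotein that epithelial lines can also express. The fibroblast list was at 231 to 245 CPM in the controls and at 34.2 to 50.7 CPM in the depleted libraries, nearly all of it COL1A1. The part of these markers in the member results was not tested.

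Genes were called at an adjusted p under 0.1 in the quasi-likelihood test of edgeR, the false discovery rate used in the study. In shARNT against shControl, 6 of the 9 members were called, 4 higher and 2 lower, while 81.8% of all genes tested passed, 40.5% with a rise and 41.3% with a fall. For shBMAL1 against shControl there were also 6 called members, 4 higher and 2 lower, against a background of 63.4% of all genes, 31.9% higher and 31.5% lower. In the direct contrast of shARNT against shBMAL1, 7 members were called, 4 higher and 3 lower in shARNT, with 81.2% of all genes called, 40.1% higher and 41.1% lower. With libraries scaled by their totals alone, all 9 members were called in shARNT, 8 higher and 1 lower, 4 were higher and 1 lower in shBMAL1, and 6 were higher and 2 lower in the direct contrast. Under that scaling, 7828 of all 15551 genes were called higher and 5111 lower in shARNT. There were 5520 higher and 4366 lower in shBMAL1, and 7471 and 5286 in the direct contrast. The shares of members called are near the background or on either side of it, so the number of calls says nothing particular about the members, and the sizes and directions below carry the description. The median log2 fold change over the members was 0.01 in shARNT and 0.04 in shBMAL1, next to medians of -0.01 and -0.0014 over all genes tested. The 3 control libraries serve both depletions, so the values of a gene in the 2 contrasts are given side by side and are not independent.

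**Figure D1:**
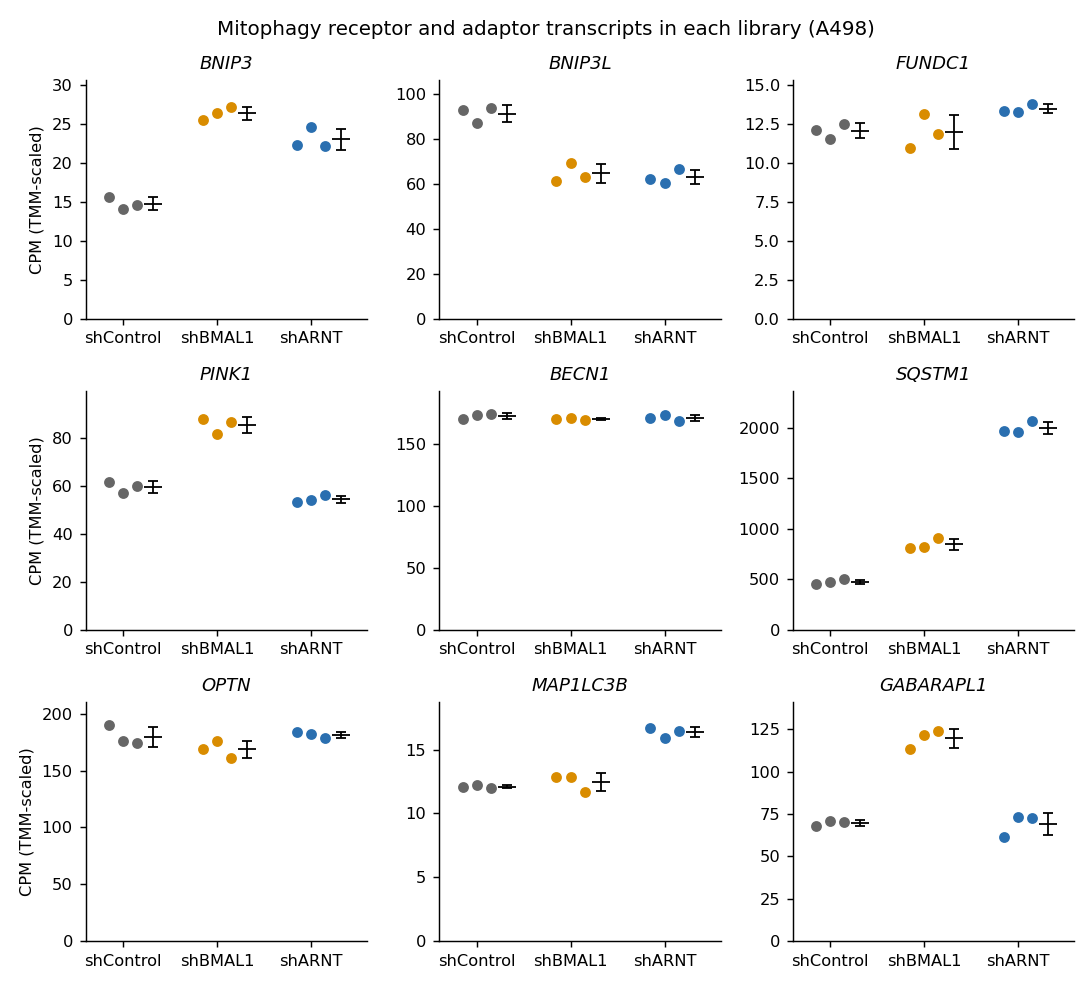
Level of each member in every library. Each panel shows 1 gene, with CPM (TMM-scaled) on a linear axis from 0, a point for each of the 3 libraries of a group, and the group mean with its SD beside the points. SQSTM1 reached 1962 to 2070 CPM in shARNT against 456 to 498.3 in shControl, GABARAPL1 and PINK1 stood apart in shBMAL1, and the 9 BECN1 points lay between 168.5 and 174.4 CPM.

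BNIP3 rose and its paralog BNIP3L fell in both depletions. BNIP3 (GRCh37 chromosome 10, 133781188 to 133795471, minus strand), a BH3-like receptor of the outer mitochondrial membrane, was at 15.7, 14.0 and 14.6 CPM in the shControl libraries, 25.5, 26.4 and 27.2 CPM in shBMAL1, and 22.3, 24.6 and 22.2 CPM in shARNT. Every depleted library was above every control library, and the shBMAL1 libraries were all above those of shARNT. The counts behind these levels were 462 to 522 in shControl and 871 to 972 in the depleted groups. The rise was 1.78-fold in shBMAL1 (log2 fold change 0.84 ± 0.07 SE, edgeR adjusted p = 5.05e-09) and 1.56-fold in shARNT (0.64 ± 0.07, adjusted p = 8.20e-08). In the direct contrast BNIP3 was lower in shARNT than in shBMAL1 (-0.20 ± 0.07, adjusted p = 0.0141), a difference that was -0.01 with an adjusted p of 0.950 when libraries were scaled by their totals alone. The rise of BNIP3 ranked 1053rd from the top of 15551 genes in shBMAL1 and 3581st in shARNT.

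The 250 bases before the BNIP3 start site are shown because hypoxia-inducible factors and BMAL1 bind short motifs around the letters CGTG, and BNIP3 was the receptor that rose. Capitals mark every match, on either strand, to ACGTG or GCGTG, the cores of the hypoxia response element, and the sequence is that of RefSeq on GRCh38.p14 (chromosome 10, 131981924 to 131982173, minus strand, written 5′ to 3′ along the gene).
BNIP3: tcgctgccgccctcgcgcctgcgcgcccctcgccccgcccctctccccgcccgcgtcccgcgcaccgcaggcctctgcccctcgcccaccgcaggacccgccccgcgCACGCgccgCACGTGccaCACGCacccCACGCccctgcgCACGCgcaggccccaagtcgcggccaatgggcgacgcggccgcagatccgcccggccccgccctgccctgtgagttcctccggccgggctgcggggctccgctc
The window held 6 matches between 143 and 104 bases before the start site, 4 of GCGTG and 2 of ACGTG, and the ACGTG matches were the overlapping strands of a single CACGTG, the E-box bound by CLOCK and BMAL1. Among the 35116 promoter windows of 300 bases (250 before to 50 after a start) in the table, 48.4% held ACGTG or GCGTG on either strand, 21.4% held ACGTG, 36.5% held GCGTG and 7.26% held CACGTG. The BNIP3 window of that length was 80.7% G and C. These are letter matches, and binding was not measured in these files.

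BNIP3L (chromosome 8, 26240570 to 26363152), which is best known for clearing mitochondria from maturing red cells, was the more abundant paralog in the control cells. It was at 92.9, 87.1 and 93.7 CPM in shControl, 61.3, 69.4 and 63.1 CPM in shBMAL1, and 61.9, 60.4 and 66.5 CPM in shARNT. The depleted libraries lay below all controls and overlapped each other. The fall was to 0.708 of control in shBMAL1 (log2 fold change -0.50 ± 0.05 SE, edgeR adjusted p = 1.77e-07) and to 0.690 in shARNT (-0.53 ± 0.05, adjusted p = 2.00e-08). The direct contrast was not called (-0.04, 95% interval -0.15 to 0.08, edgeR adjusted p = 0.548), and was 0.15 and called when libraries were scaled by their totals alone (adjusted p = 0.0177). PNMA2, which overlaps BNIP3L over 936 bases on the opposite strand, was at 46.7 ± 1.05 CPM in shControl, 43.2 ± 2.59 in shBMAL1 and 10.4 ± 1.42 in shARNT (SD, n = 3). It is not stated whether strand was used in counting. The part of such reads in the BNIP3L values and in the ratios below was not tested.

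The balance between these paralogs was taken inside each library, where scaling between libraries does not enter. There were 5.92, 6.20 and 6.42 BNIP3L counts per BNIP3 count in shControl, 2.40, 2.63 and 2.32 in shBMAL1, and 2.78, 2.46 and 2.99 in shARNT. The depleted groups lay far below the controls and overlapped each other. Divided by transcript length, BNIP3L exceeded BNIP3 by a factor of 2.76 ± 0.111 in shControl, 1.09 ± 0.0716 in shBMAL1 and 1.23 ± 0.120 in shARNT (SD, n = 3). In an exact two-sided permutation test over libraries the difference in the ratio of counts gave p = 0.10 for either depletion against shControl, the smallest p that 3 against 3 libraries allow, and p = 0.20 between the depletions (adjusted p = 0.15, 0.15 and 0.20 over these 3 comparisons).

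**Figure D2:**
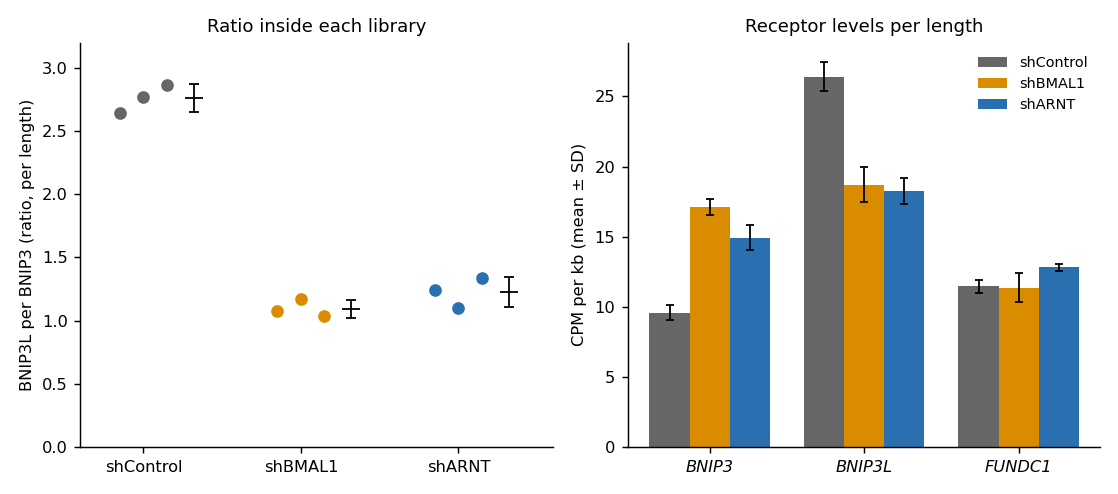
Balance of the mitophagy receptors. Left, BNIP3L per BNIP3 after division by transcript length, with a point per library and the mean and SD of each group beside them; right, level per length (CPM per kb, bars are means, error bars SD, n = 3) of the 3 receptors. The ratio fell from 2.76 in shControl to 1.09 in shBMAL1 and 1.23 in shARNT as BNIP3 rose and BNIP3L fell.

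FUNDC1 (chromosome X, 44382885 to 44402105, minus strand), a receptor whose binding to ATG8 proteins is set by phosphorylation, moved little. Its levels were 12.14, 11.57 and 12.53 CPM in shControl, 10.97, 13.15 and 11.85 CPM in shBMAL1, and 13.36, 13.30 and 13.81 CPM in shARNT. The shARNT libraries were above all others, and the shBMAL1 libraries spread across the controls. FUNDC1 passed the threshold in shARNT with a rise of 1.12-fold (log2 fold change 0.16 ± 0.09 SE, 95% interval -0.02 to 0.34, edgeR adjusted p = 0.0993) and in the direct contrast (0.17, interval -0.01 to 0.35, adjusted p = 0.0793). The first call was lost when any of shControl 1, shControl 2, shBMAL1 3 or the 3 shARNT libraries was left out (adjusted p up to 0.2505). It was also lost without the filter on low counts (adjusted p = 0.160), with DESeq2 (0.157), with only the 6 libraries compared (0.109), with a replicate block (0.1125) and with halved counts (0.1001). The second was lost without shBMAL1 1, shBMAL1 3 or any shARNT library, with a lowest value of 0.11, and also without the filter (adjusted p = 0.129), with DESeq2 (0.119) and with only the 6 libraries compared (0.1009). In shBMAL1 against shControl the difference was -0.01 (interval -0.19 to 0.17, adjusted p = 0.928). Its near relative FUNDC2, whose product is also mitochondrial, was at 37.6 ± 0.571 CPM in shControl and 10.3 ± 1.17 in shARNT, a fall of 1.87 on the log2 scale (edgeR adjusted p = 4.67e-15).

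PINK1 (chromosome 1, 20959951 to 20978004), the kinase that phosphorylates ubiquitin and Parkin on damaged mitochondria, rose in shBMAL1 and was slightly lower in shARNT. The values were 61.7, 57.05 and 60.2 CPM in shControl, 88.2, 81.8 and 86.8 CPM in shBMAL1, and 53.35, 54.2 and 56.3 CPM in shARNT. The shBMAL1 libraries were above all others, and the shARNT libraries were all below the lowest control. PINK1 rose 1.44-fold in shBMAL1 (log2 fold change 0.52 ± 0.05 SE, edgeR adjusted p = 2.21e-08). In shARNT it was 0.915 of control (-0.13 ± 0.05, adjusted p = 0.0259), a fall that became a called rise of 0.11 when libraries were scaled by their totals alone (adjusted p = 0.0541). The depletions differed by -0.65 ± 0.05 (shARNT against shBMAL1, edgeR adjusted p = 2.11e-10), and that direction was kept under both scalings. PINK1-AS, a noncoding gene on the opposite strand, overlaps PINK1 over 8855 bases and had no row found under its name. The same holds for noncoding genes opposite BNIP3 (1098 and 332 bases) and GABARAPL1 (GABARAPL1-AS1, 601 bases). The part of such reads in the values of these 3 members was not tested.

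BECN1 (chromosome 17, 40962152 to 40985367, minus strand), a subunit of the lipid kinase complex that starts the phagophore, was the steadiest member. Its 9 libraries ran from 169.8 to 174.4 CPM in shControl, from 169.2 to 171.3 CPM in shBMAL1 and from 168.5 to 173.4 CPM in shARNT, and all 3 groups overlapped. The differences were -0.01 in shARNT (95% interval -0.09 to 0.06, edgeR adjusted p = 0.754) and -0.02 in shBMAL1 (-0.10 to 0.06, adjusted p = 0.673). With libraries scaled by their totals alone, which raised the median of all genes by 0.24 in shARNT, the BECN1 value there was 0.22, close to that shift, and it was then called higher (edgeR adjusted p = 1.31e-05). PSME3, a proteasome activator gene on the opposite strand that overlaps BECN1 over 8966 bases, was at 154.8 ± 6.41 CPM in shControl and 356.0 ± 9.46 in shARNT, so the flat level of BECN1 stood beside a neighbour that did not stay flat.

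SQSTM1 (chromosome 5, 179233398 to 179265078), which encodes the adaptor p62, changed most among the members. It was at 456, 469.7 and 498.3 CPM in shControl, 810.0, 823 and 905.5 CPM in shBMAL1, and 1970, 1962 and 2070 CPM in shARNT. The 3 groups were separated without overlap and ordered shControl, shBMAL1, shARNT. The counts behind the shARNT values were 77599 to 82165. SQSTM1 rose 4.21-fold in shARNT (log2 fold change 2.08 ± 0.04 SE, edgeR adjusted p = 2.63e-19) and 1.78-fold in shBMAL1 (0.83 ± 0.04, adjusted p = 2.48e-12), and was 2.36-fold higher in shARNT than in shBMAL1 (1.24 ± 0.04, adjusted p = 6.45e-16). Its rise ranked 288th from the top of 15551 genes in shARNT and 1057th in shBMAL1.

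Genes on the opposite strand at the SQSTM1 locus moved the same way. MGAT4B, a glycosyltransferase gene that overlaps the annotated SQSTM1 gene over 555 bases, was at 141.6 ± 1.93 CPM in shControl, 248.8 ± 2.84 in shBMAL1 and 739.2 ± 3.86 in shARNT (SD, n = 3). MRNIP, listed as C5orf45 and overlapping over 2946 bases, was at 17.2 ± 1.85, 27.9 ± 1.07 and 50.8 ± 1.79 CPM. The libraries were stranded, but it is not stated whether strand was used in counting, and reads of SQSTM1 and of its antisense neighbours in the shared stretches then cannot be told apart. These neighbours were looked up after the values of SQSTM1 were seen.

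The window before the canonical start of SQSTM1 (RefSeq, GRCh38.p14 chromosome 5, 179820655 to 179820904) is shown as the counterpart to BNIP3, since SQSTM1 rose most and its 3 windows in the promoter table held neither ACGTG nor GCGTG, so it has no capitals.
SQSTM1: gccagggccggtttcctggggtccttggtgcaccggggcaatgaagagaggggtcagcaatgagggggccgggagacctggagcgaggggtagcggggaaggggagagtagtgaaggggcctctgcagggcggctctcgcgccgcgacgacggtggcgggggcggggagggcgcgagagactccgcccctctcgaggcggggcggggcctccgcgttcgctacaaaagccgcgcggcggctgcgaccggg
It also held no TGACNNNGC, the core of the antioxidant response element bound by NRF2 (NFE2L2), which 13.3% of all windows held on either strand. The absence of these letters in 300 bases says nothing about more distant elements.

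OPTN (chromosome 10, 13141449 to 13180308), the adaptor optineurin, which TBK1 phosphorylates on ubiquitin-coated mitochondria, was close to level. It was at 189.8, 175.6 and 173.9 CPM in shControl, 169.0, 176.3 and 161.0 CPM in shBMAL1, and 183.9, 181.8 and 178.6 CPM in shARNT, and either depletion overlapped the controls. In shBMAL1 it passed the threshold with 0.939 of control (log2 fold change -0.09 ± 0.04 SE, edgeR adjusted p = 0.0849). That call was lost without shControl 1 (value -0.05, adjusted p = 0.368), shBMAL1 1, shBMAL1 3 (-0.06, adjusted p = 0.318) or shARNT 2, and with scaling by totals alone (-0.04). In shARNT the difference was 0.01 (95% interval -0.08 to 0.11, edgeR adjusted p = 0.787). In the direct contrast OPTN was higher in shARNT (0.10 ± 0.04, adjusted p = 0.0365), a call lost without shBMAL1 3 (0.07, adjusted p = 0.188).

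MAP1LC3B and GABARAPL1, both ATG8 proteins that are coupled to lipid on the phagophore and bind receptors and adaptors, each rose in a different depletion. MAP1LC3B (LC3B, chromosome 16, 87417559 to 87438385) was at 12.05, 12.24 and 12.02 CPM in shControl, 12.87, 12.89 and 11.64 CPM in shBMAL1, and 16.71, 15.93 and 16.48 CPM in shARNT. Only the shARNT libraries stood apart. The rise in shARNT was 1.35-fold (log2 fold change 0.44 ± 0.08 SE, edgeR adjusted p = 4.20e-05), and in shBMAL1 the difference was 0.04 (95% interval -0.13 to 0.21, adjusted p = 0.672). The depletions differed by 0.39 ± 0.08 (shARNT against shBMAL1, adjusted p = 1.27e-04). MAP1LC3B2, a near-identical copy of the gene, was at 24.0 CPM in shControl, 24.9 in shBMAL1 and 35.5 in shARNT, and MAP1LC3B took 33.6% ± 1.24, 33.4% ± 1.83 and 31.6% ± 1.11 of the summed counts of both. Reads that fit both copies may have been split, so the level of MAP1LC3B alone is uncertain. With both rows summed into 1 gene, an analysis added after the data were seen, the level was 36.1 ± 1.68 CPM in shControl, 37.3 ± 1.43 in shBMAL1 and 51.9 ± 0.798 in shARNT, and the rise in shARNT was 0.53 ± 0.05 (edgeR adjusted p = 2.45e-08). FBXO31, which overlaps MAP1LC3B over 8190 bases on the opposite strand, also stood higher in shARNT, at 86.19 ± 3.798 CPM against 36.5 ± 0.314 in shControl.

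The MAP1LC3B promoter is the other window among the members with a match to the hypoxia response core (RefSeq, GRCh38.p14 chromosome 16, 87392086 to 87392335, plus strand), with GCGTG on either strand in capitals.
MAP1LC3B: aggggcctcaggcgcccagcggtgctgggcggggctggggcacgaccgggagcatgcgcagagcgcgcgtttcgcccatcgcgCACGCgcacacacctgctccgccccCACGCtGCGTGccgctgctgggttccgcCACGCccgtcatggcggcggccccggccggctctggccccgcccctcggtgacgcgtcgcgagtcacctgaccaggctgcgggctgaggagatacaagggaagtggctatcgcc
It held 4 GCGTG between 167 and 114 bases before the start and no ACGTG, and 1 TGACNNNGC in the 300-base window. The windows of FUNDC1, BECN1, OPTN and GABARAPL1 held none of the motifs searched. For 7 of the 9 members the promoter table had an entry, and PINK1 and BNIP3L were not among them.

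GABARAPL1 (chromosome 12, 10365057 to 10375727) was at 67.7, 70.75 and 70.4 CPM in shControl, 113.5, 121.5 and 124.0 CPM in shBMAL1, and 61.4, 73.0 and 72.6 CPM in shARNT. The shBMAL1 libraries were above all others, and the shARNT libraries surrounded the controls, with replicate 1 lowest. It rose 1.72-fold in shBMAL1 (log2 fold change 0.78 ± 0.06 SE, edgeR adjusted p = 6.43e-10), 1193rd from the top of 15551 genes. In shARNT the difference was -0.01 (95% interval -0.14 to 0.11, adjusted p = 0.851) and 0.22 when libraries were scaled by their totals alone, where it was called higher (edgeR adjusted p = 0.00145). The depletions differed by -0.79 ± 0.06 (shARNT against shBMAL1, adjusted p = 1.14e-10).

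**Figure D3:**
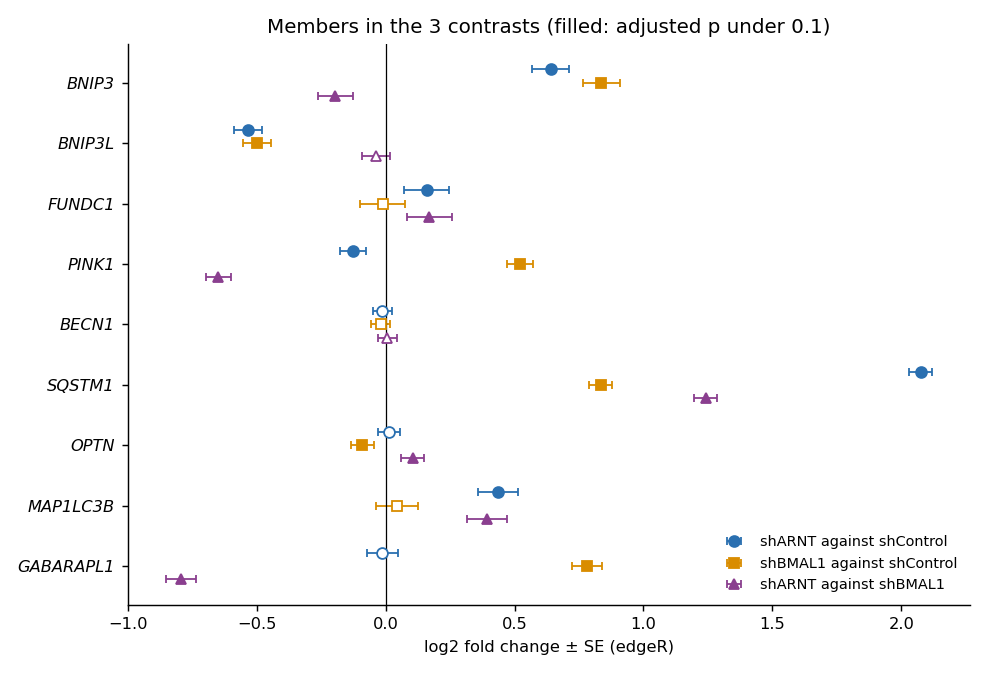
Fold changes of the members. The x axis gives the log2 fold change of the edgeR fit with its SE as error bar, for shARNT against shControl (circles), shBMAL1 against shControl (squares) and shARNT against shBMAL1 (triangles), and filled symbols mark an adjusted p under 0.1. SQSTM1 reached 2.08 in shARNT, BNIP3 and BNIP3L moved in opposite directions in both depletions, and PINK1 and GABARAPL1 rose in shBMAL1, with direct differences of -0.65 and -0.79. Scaled by library totals alone, both were called higher in shARNT as well (0.11 and 0.22).

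Per transcript length, the members in the control cells were ordered SQSTM1, BECN1, OPTN, GABARAPL1, BNIP3L, PINK1, FUNDC1, BNIP3 and MAP1LC3B. SQSTM1 was at 167 ± 7.58 CPM per kb, BECN1 at 81.8 ± 1.16 and MAP1LC3B at 5.64 ± 0.0568, and no neighbours in this order overlapped in their library values. In both depletions BNIP3 stood above FUNDC1, at 17.1 ± 0.568 against 11.4 ± 1.04 CPM per kb in shBMAL1 and 14.9 ± 0.866 against 12.8 ± 0.265 in shARNT, whereas in shControl it stood below, at 9.58 ± 0.543 against 11.5 ± 0.457. GABARAPL1 moved above OPTN in shBMAL1, at 63.5 ± 2.92 against 48.5 ± 2.19 CPM per kb. These levels rest on the length of 1 canonical transcript per gene. The place of MAP1LC3B is uncertain, since its row held 33.6% of the summed counts of MAP1LC3B and MAP1LC3B2 in shControl.

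The genes whose fold changes lay nearest to those of BNIP3, by the Euclidean distance over both contrasts with shControl among the 9750 genes whose log2 CPM averaged 3 or more, were STAU2, ZFAND5, MTHFD2, TRIB2 and ZMIZ1, at distances of 0.0226 to 0.0577. The nearest member was GABARAPL1, which ranked 1284th at a distance of 0.656, and BNIP3L ranked 7722nd at 1.78. SQSTM1 ranked 6429th, since its rise was like that of BNIP3 in shBMAL1 (0.83 against 0.84 on the log2 scale) but larger in shARNT (2.08 against 0.64).

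The transcription factors known to act on these genes were listed beside them. HIF1A, which encodes the HIF1α subunit, rose from 133.0 to 146.6 CPM in shControl to 405.1 to 430.2 in shBMAL1 (log2 fold change 1.59, edgeR adjusted p = 2.43e-16) and 373.2 to 407.6 in shARNT (1.48, adjusted p = 5.02e-17). EPAS1, which encodes HIF2α, fell from 330.7 to 366.2 CPM to 219.3 to 254.2 in shBMAL1 (-0.57, adjusted p = 1.54e-08) and to 70.4 to 76.75 in shARNT (-2.22, adjusted p = 2.94e-18). NFE2L2, which encodes NRF2 and acts on SQSTM1, rose by 0.86 in shARNT (adjusted p = 2.02e-14) and by 0.08 in shBMAL1 (adjusted p = 0.0791). TFEB and MITF, which drive lysosomal and autophagy genes, fell in both depletions, TFEB by 1.16 in shARNT and by 0.54 in shBMAL1, MITF by 0.88 and by 0.64. TFE3 of the same family differed by 0.12 in shARNT and -0.13 in shBMAL1 (adjusted p = 0.0503 and 0.0413). FOXO3, an activator of BNIP3 and autophagy genes in muscle, was 0.39 higher in shARNT and 0.24 lower in shBMAL1 on the log2 scale, whereas FOXO1 was higher in both, by 0.33 and 0.52. The stress factors ATF4 (0.50 and 0.23) and DDIT3 (0.70 and 0.47) were higher in shARNT and shBMAL1. PPARGC1A, a driver of mitochondrial biogenesis, was called higher in both but stayed at or below 1.34 CPM on average. All of these passed the threshold of edgeR at adjusted p values up to 0.0791, and their part in the member results was not tested.

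Around the members, 108 further genes of mitophagy and autophagy were listed by function, of which 105 were tested. In shARNT 74 were higher, 21 lower and 10 not called, with a median log2 fold change of 0.33 next to -0.01 over all genes, of which 40.5% were higher and 41.3% lower. In shBMAL1 39 were higher, 33 lower and 33 not called, with a median of 0.04, next to 31.9% higher and 31.5% lower over all genes. In the direct contrast 65 were higher and 24 lower in shARNT, with a median of 0.30, next to 40.1% higher and 41.1% lower over all genes. The counts of the separate lists that follow stand against the same shares, with 81.8% of all genes called in shARNT and 63.4% in shBMAL1, so a list with most of its genes called is not set apart by that number. With libraries scaled by their totals alone the counts were 82 and 17 in shARNT and 48 and 28 in shBMAL1. Over all 15551 genes tested under that scaling, they were 7828 and 5111 in shARNT and 5520 and 4366 in shBMAL1.

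Partners and regulators of the receptors numbered 13, of which 8 were higher and 5 lower in shARNT, and 3 higher and 6 lower in shBMAL1. The outer membrane ubiquitin ligase gene MUL1 rose by 1.48 in shARNT (edgeR adjusted p = 2.73e-14) and by 0.38 in shBMAL1. PGAM5, the phosphatase that acts on FUNDC1, rose by 1.46 in shARNT and was 0.19 lower in shBMAL1. NIPSNAP1, a mitochondrial protein that can recruit adaptors, fell by 0.91 and by 0.31. PHB2, an inner membrane receptor, was 0.30 lower in shBMAL1 and 0.22 higher in shARNT. PPTC7, a phosphatase that limits BNIP3 and BNIP3L protein, was 0.42 higher in shBMAL1 and 0.41 higher in shARNT. Its direct contrast was not called (-0.01, edgeR adjusted p = 0.938).

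Of 22 genes of the PINK1 and Parkin axis, 16 were higher and 4 lower in shARNT, and 4 were higher and 10 lower in shBMAL1. OMA1, an inner membrane protease, rose by 1.43 in shARNT, RHOT2, a Parkin substrate that anchors mitochondria to motors, by 1.15, and the kinase gene TBK1 by 1.14. FBXO7 fell by 0.92 and TOMM7, which stabilizes PINK1 at the import pore, by 0.41 in shARNT. In shBMAL1, PMPCA of the processing peptidase fell by 0.45 and the import receptor TOMM70 (listed as TOMM70A) by 0.44. TBK1 rose there by 0.37 and MFN1 by 0.27. In shARNT, TOMM70 was also lower (-0.38) and MFN1 also higher (0.36), whereas PMPCA was higher (0.31). Parkin itself, listed as PARK2 and named here after its values were seen, was near the lower limit of detection, at 1.97 CPM on average in shControl, 2.38 in shBMAL1 and 0.446 in shARNT (log2 fold change -2.14 in shARNT, edgeR adjusted p = 2.31e-07).

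Among 6 other cargo adaptors, 5 were higher and 1 lower in shARNT, and 2 were higher and 1 lower in shBMAL1. TAX1BP1 rose by 0.51 and 0.52 in shARNT and shBMAL1, NBR1 by 0.74 in shARNT, and CALCOCO2 (NDP52) fell by 0.51 in shARNT and rose by 0.18 in shBMAL1. CALCOCO1 was 0.22 lower in shBMAL1.

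In the ATG8 family and its conjugation machinery, 9 of 15 genes were higher and 4 lower in shARNT, and 10 were higher and 1 lower in shBMAL1. ATG7, the E1-like enzyme of the system, rose from 24.7 CPM in shControl to 39.6 in shBMAL1 and 93.8 in shARNT (log2 fold changes 0.68 and 1.92). The protease gene ATG4A rose by 1.39 in shARNT. ATG10, the E2-like enzyme for ATG12, fell by 1.37 in shARNT and rose by 0.79 in shBMAL1, and ATG12 fell by 0.65 in shARNT. ATG16L2 rose by 0.77 in shBMAL1 and by 0.94 in shARNT. ATG4B was 0.23 lower in shBMAL1 and 1.34 higher in shARNT.

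Of 23 genes of initiation and the phagophore, 17 were higher and 4 lower in shARNT, and 7 were higher and 7 lower in shBMAL1. WIPI1, a phosphoinositide effector of the phagophore, fell from 90.7 CPM in shControl to 20.9 in shARNT (log2 fold change -2.11, edgeR adjusted p = 1.03e-17). RUBCN (listed as KIAA0226), an inhibitor of the BECN1 complex, rose by 1.17 and the lipid transfer gene ATG2A by 1.15 in shARNT, and NRBF2 fell by 0.46. ATG2B rose by 0.68 in shBMAL1 and 0.79 in shARNT, and ATG101 (listed as C12orf44) by 0.37 and 0.56. In shBMAL1, RUBCN was 0.34 and WDR45 0.27 lower, and WDR45 was not called in shARNT (0.0031).

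Of 20 fusion and lysosome genes, 15 were higher and 3 lower in shARNT, and 12 were higher and 5 lower in shBMAL1. The 3 that were lower in shARNT were lysosomal proteins: cathepsin B (CTSB) fell from 1068 to 269.6 CPM (log2 fold change -1.99), LAMP2 from 320 to 93.4 CPM (-1.78), and cathepsin D (CTSD) from 3559 to 2800 CPM (-0.35). Other lysosomal genes of the list were called higher in shARNT, MCOLN1 by 1.07, CTSL by 0.12 and LAMP1 by 0.09. The tethering subunits VPS18 and VPS33A rose by 1.30 and 1.17 there. In shBMAL1, CTSL rose by 0.81 and CTSD by 0.71, while the lysosomal channel gene MCOLN1 was 0.42 and VPS41 0.38 lower. CD68, which lies outside these lists and was placed here after its values were seen, fell with CTSB and LAMP2 in shARNT. It was at 1753 to 1904 CPM in shControl and shBMAL1 and 135.5 to 148.4 in shARNT. In shBMAL1, CTSB (-0.26) and LAMP2 (-0.34) were called lower, whereas CD68 was not called (-0.06).

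Of 6 genes of mitochondrial division and fusion, 4 were higher and none lower in shARNT, and 1 was higher and 3 lower in shBMAL1. FIS1, an outer membrane adaptor of division, rose by 0.92 in shARNT and fell by 0.20 in shBMAL1. MIEF2 (listed as SMCR7) rose by 0.56 in shARNT and was 0.17 lower in shBMAL1. The division gene DNM1L was 0.21 higher in shBMAL1 and 0.395 higher in shARNT. The fusion gene OPA1 was 0.24 lower in shBMAL1 and not called in shARNT (-0.02).

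**Figure D4:**
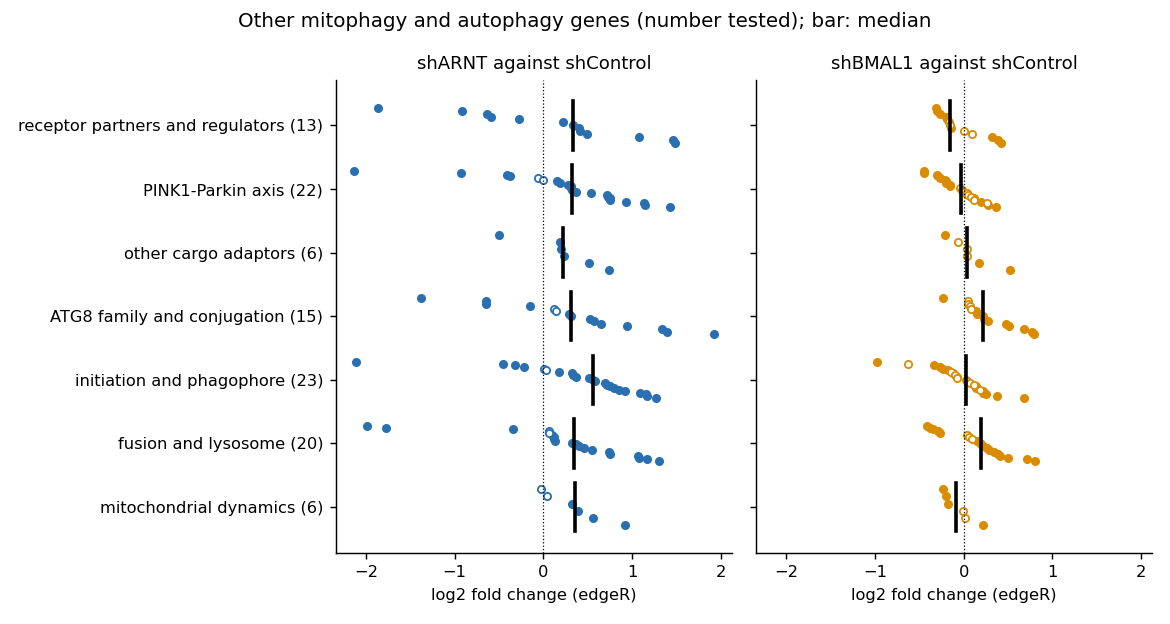
Other mitophagy and autophagy genes by function. Each point is 1 gene, at its log2 fold change in the edgeR fit on the x axis, for shARNT (left) and shBMAL1 (right) against shControl; filled points passed an adjusted p under 0.1, the number tested stands beside each list, and the bar is the median of the list. In shARNT the list medians lay between 0.22 and 0.56, and in shBMAL1 between -0.15 and 0.21.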

How the data were processed

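RNA from A498 cells of 3 groups was measured by RNA sequencing in 9 libraries of 35269851 to 36099075 counts, and samples were grouped by their titles. The values deposited by the authors were expected counts, total reads per gene without normalization. Per the study's methods, reads were aligned to GRCh37 with SeqMan NGen and exported with ArrayStar, whereas the submitters' processing notes name hg38, STAR and DESeq2. The use of strand, the handling of reads with several alignments and the annotation were not given in the sources used here. A value of 0.05 stood for no reads and was set to 0. Rows of 45 names held by several rows were summed, which turned 27716 rows into 27671 genes, and the 720 to 787 fractional values per library were rounded. No member had a fractional value. A further gene of the marker list is not reported here.

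The main test was glmQLFTest of edgeR 4.0.16 in R 4.3.3 (quasi-likelihood), fitted over all 9 libraries with the group as factor, TMM scaling and filterByExpr, which left 15551 genes. The Benjamini-Hochberg adjustment covered all genes tested. Intervals at 95% used the t quantile on the residual and prior degrees of freedom. CPM are counts relative to TMM-scaled library sizes. The computations were tested on simulated data. Alternatives were size factors of DESeq2, library totals alone, no filter, the DESeq2 1.42.0 Wald test, only the 6 libraries compared, a replicate block, halved counts, an adjusted p under 0.05 and each library left out.

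The members and gene lists were chosen with earlier results of these data known. Named were all members, from each list the 2 largest rises and falls per contrast with shControl among called genes whose log2 CPM averaged 2 or more, all listed transcription factors and close copies, and the 5 genes nearest to BNIP3. Genes outside that rule were added after their values were seen. They were PARK2, CD68 beside the lysosomal genes, antisense neighbours, and TBK1, CTSD, CTSL, MCOLN1 and LAMP1 in shARNT. Further shARNT values were those of PHB2, PPTC7, PMPCA, TOMM70, MFN1, ATG16L2, ATG4B, ATG2B, ATG101, WDR45, OPA1 and DNM1L. In shBMAL1 the values so added were those of PGAM5, ATG7, MIEF2, CTSB and LAMP2. Of the 108 listed pathway genes, MAP1LC3C and ULK2 did not pass the filter and 1 had no row under its name. Gene positions and lengths came from GENCODE release 44 lifted to GRCh37, and promoter sequences from RefSeq on GRCh38.p14. Each of the 3 printed windows matched GRCh37 exactly 1 time.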

Additional observations from a re-analysis of the deposited data

Results flagged for a closer look

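The effects of the 2 depletions differed in 7 members by the direct edgeR contrast of shARNT against shBMAL1. The differences on the log2 scale were 1.24 for SQSTM1 (adjusted p = 6.45e-16) and 0.39 for MAP1LC3B (adjusted p = 1.27e-04), both higher in shARNT. They were -0.79 for GABARAPL1 (adjusted p = 1.14e-10), -0.65 for PINK1 (adjusted p = 2.11e-10) and -0.20 for BNIP3 (adjusted p = 0.0141), all lower in shARNT. Smaller differences were 0.17 for FUNDC1 (adjusted p = 0.0793) and 0.10 for OPTN (adjusted p = 0.0365). With 81.2% of all genes tested called in this contrast, a difference between the depletions was the usual case.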

How the results depend on the processing

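The numbers of members and pathway genes called stayed within 1.5 times of the reported ones under all alternatives run. For the 9 members no rise in calls could have passed that limit, and with scaling by totals all 9 were called in shARNT. The direction of calls moved with scaling by totals, where 8 members were higher and 1 lower in shARNT. The BNIP3L to BNIP3 ratios of counts stayed within 1 SD of the group means when single libraries were left out. With 3 libraries per group that holds for any values, so it is no measure of stability. The counts and ratios together were 114 recomputed values. Of the recomputed member fold changes, 391 kept direction and side of the threshold, 26 lost the call, 2 gained it with the same sign and 16 changed sign, and the cause was not tested. Scaling by library totals alone raised the median of all genes by 0.24 (shARNT), 0.05 (shBMAL1) and 0.19 (direct contrast), and made 60.5% of the calls in shARNT higher instead of 49.6%. Under it the direct difference of BNIP3 was -0.0052 (adjusted p = 0.950), and signs changed in shARNT for PINK1 (0.11), BECN1 (0.22) and GABARAPL1 (0.22), in shBMAL1 for FUNDC1 (0.0362) and BECN1 (0.0275), and directly for BNIP3L (0.15). Of these, PINK1, BECN1, GABARAPL1 and BNIP3L were called with the new sign, and OPTN in shARNT (0.25) and BECN1 in the direct contrast (0.20) were also called. With only the 6 libraries compared, the direct BECN1 value was -0.0015. Leaving out single libraries gave ranges across 0, in shARNT for BECN1 (-0.0273 to 0.0001), OPTN (-0.0122 to 0.0516) and GABARAPL1 (-0.0535 to 0.0662), in shBMAL1 for FUNDC1 (-0.084 to 0.051), and directly for BNIP3L (-0.0775 to 0.0185) and BECN1 (-0.0013 to 0.0196). BNIP3 stayed at 0.59 to 0.68 in shARNT and 0.80 to 0.88 in shBMAL1. Replicate numbers did not pair the samples, since deviations of same-numbered libraries correlated at -0.0409 to 0.0752 in 9 pairs. With a replicate block the BNIP3 values were 0.64 (shARNT), 0.84 (shBMAL1) and -0.20 (direct contrast), and FUNDC1 in shARNT was no longer called (0.16, adjusted p = 0.1125). Depth limits FUNDC1, MAP1LC3B and BNIP3 most, with 375 to 972 counts per library and SEs of 0.07 to 0.09 on the log2 scale.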
